A study of Mus musculus with 18 samples.

Results

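The serpins are a large gene family whose members mostly inhibit serine or cysteine proteases, and whose transcripts were followed here in the ovaries of young mice born to dams on a high-methionine or a normal diet. Members were all symbols in the deposited tables made of Serpin, a clade letter from a to i, a number and at most 1 further letter, which gave 54 of the 30172 genes listed. Statistics were computed for the 17 members with a value of at least 1 FPKM (fragments scaled to transcript length and to library depth) in at least 3 of the 18 libraries, and for 14607 genes in all.

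A serpin works once: the target protease cuts an exposed loop of the inhibitor, the inhibitor refolds, and the protease is trapped in a covalent complex that is then cleared. Some members have lost this activity and carry hormones or help collagen to fold. In the ovary, follicle growth and rupture involve plasminogen activators and matrix remodelling, and serpins of granulosa and theca cells are among the known brakes on those proteases.

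Whole ovaries of C57BL/6J wild-type F1 females were collected on postnatal day 3, 7 or 21 (Pd3, Pd7, Pd21). F1-HHcy pups came from dams given 3% methionine by weight from 4 weeks before mating, as the labels have it (the study's methods give a longer lead), through pregnancy and nursing; F1-Control pups came from dams on normal diet. HHcy stands for hyperhomocysteinemia, raised blood homocysteine. Each of the 6 groups of diet and day had 3 stranded poly-A libraries of 33630304 to 39398922 fragments. Pd3 and Pd7 formed batch 1 and Pd21 batch 2, so that age and batch cannot be told apart where Pd21 is set against another day. Whether a library held 1 pup or several, and whether pups of a group shared a dam, is not given, so p-values measure only the spread between these libraries. Because whole ovaries were sequenced, fewer cells of a type and less RNA per cell cannot be told apart.

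Markers of the labelled tissue were present in every library: the 11 oocyte markers summed to 1170 to 3060 FPKM and the 10 granulosa markers to 185.6 to 1646 FPKM. In the third F1-HHcy library of Pd3, 11 genes reached at least 10 FPKM and over 10 times the next highest library, among them Fosb and Cxcl1, which cells switch on within minutes to hours of a stimulus. The other libraries had between 0 and 3 such genes. Counts of genes called at Pd3 are therefore given with and without that library. A gene was said to have risen or fallen when limma's test on log2(FPKM + 1) gave a Benjamini-Hochberg adjusted p under 0.05 over all genes tested; differences on this scale understate the change of genes near 1 FPKM. A permutation of 3 against 3 libraries cannot go below 0.1 and was not used for single genes.

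Family expression was concentrated in a few genes. Summed over the 54 members, the level was 872.6 to 1864 FPKM per library, and Serpinh1, Serpinb6a and Serpine2 together made up 69.8% to 87.3% of it. Serpinh1 is the collagen chaperone of the endoplasmic reticulum, Serpinb6a a cytosolic inhibitor of granule proteases, and Serpine2 a secreted inhibitor of thrombin and plasminogen activators. Their means over the 18 libraries were 388, 358.5 and 296.1 FPKM, followed by Serpinf1 (97.8), Serping1 (79.7) and Serpinb6b (23.0). Of the 17 tested members, 10 were at or above 1 FPKM in all 18 libraries.

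Of the 37 members without statistics, 30 never reached 1 FPKM and 7 reached it in 1 library each. Among the 7, Serpina1e stood at 67.9 FPKM in the third F1-Control library of Pd21 and at no more than 0.299 FPKM elsewhere. Serpina1a and Serpina1b were highest in the third F1-HHcy library of Pd3, at 1.32 and 2.50 FPKM. Serpinb8 peaked at 1.49 FPKM, Serpinb3a at 1.12 FPKM and Serpina3n at 1.01 FPKM, each in 1 library of Pd21. The 30 below 1 FPKM included the hormone carriers Serpina6 (corticosteroid binding) and Serpina7 (thyroxine binding), the maspin gene Serpinb5, and the clotting regulators Serpina10, Serpind1 and Serpinf2. The rest were Serpina11, Serpina12, Serpina16, Serpina1c, Serpina1d, Serpina1f, Serpina3b, Serpina3f, Serpina3i, Serpina3j, Serpina3k, Serpina3m, Serpinb10, Serpinb1b, Serpinb1c, Serpinb2, Serpinb3c, Serpinb6c, Serpinb6e, Serpinb9b, Serpinb9c, Serpinb9d, Serpine3 and Serpini2. Serpina1a to Serpina1e share 14.4% to 58.5% of the 100-base stretches of their GENCODE transcripts with each other, so the split of fragments among them is uncertain.

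Most members lie in 3 gene clusters in mouse build GRCm38. On chromosome 12, 23 Serpina genes lie between 103616675 and 104414334, of which 5 were tested. On chromosome 1, 8 Serpinb genes lie between 106861175 and 107608978, and Serpinb12 and Serpinb11 were tested. On chromosome 13, 11 Serpinb genes lie between 32842092 and 34002794, of which 4 were tested. Neighbours in a cluster had unlike levels: Serpina3g was above 5 FPKM in every library, while Serpina3j of the same cluster was above 0 in 1 library.

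**Figure D1:**
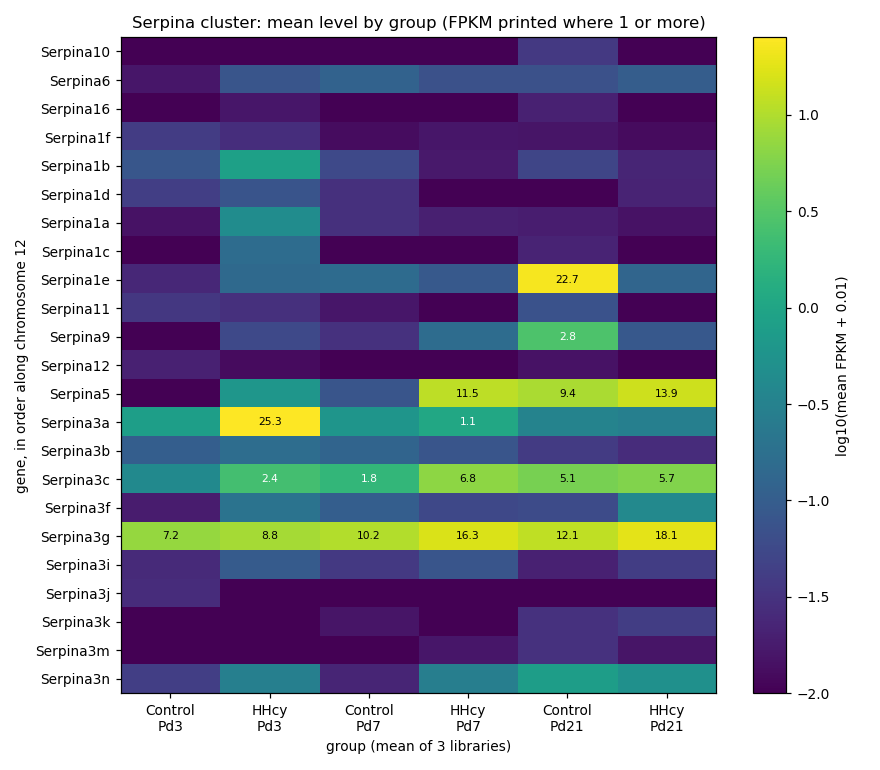
Mean level of the 23 Serpina genes of the chromosome 12 cluster, in their order along the chromosome, in each of the 6 groups (n = 3 libraries each; colour: log10 of mean FPKM + 0.01, with the mean printed from 1 FPKM up). Serpina3g was above 7 FPKM in every group, Serpina5 was above 1 FPKM in F1-HHcy at Pd7 and in both groups of Pd21, and the bright fields of Serpina3a at Pd3 and Serpina1e at Pd21 each rest on 1 library.

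Promoter sequences were shown for members whose levels the results turn on and for the 3 most abundant members. RefSeq (GRCm38.p6) gave a promoter for 46 of the 54 members and for 14 of the 17 tested. In the 250 bases before each start, both strands were searched for 7 motifs, and capitals mark every match in the stretches below: the TATA box core TATAAA (12.4% of 32851 RefSeq promoters hold it), the GC box GGGCGG (32.7%), the steroidogenic factor letters CAAGGTCA (1.33%), the AP-1 letters TGACTCA (4.46%), the GATA letters AGATAA (9.99%), the E-box CACGTG (6.02%) and the STAT letters TTCNNNGAA (7.02%). Each line gives 100 bases, 5′ to 3′ in the direction of the gene, ending just before the most upstream start annotated within the window. The Serpina5 stretch ends at the start that GENCODE vM21 gives, which lies inside a longer gene span in RefSeq.
Serpina3c (chr12:104153930-104154029, minus strand): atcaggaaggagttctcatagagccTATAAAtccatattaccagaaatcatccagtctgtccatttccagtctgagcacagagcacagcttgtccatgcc
Serpina3n (chr12:104406546-104406645, plus strand): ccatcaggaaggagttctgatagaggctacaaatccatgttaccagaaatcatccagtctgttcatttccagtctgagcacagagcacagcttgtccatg
Serpina3g (chr12:104236047-104236146, plus strand): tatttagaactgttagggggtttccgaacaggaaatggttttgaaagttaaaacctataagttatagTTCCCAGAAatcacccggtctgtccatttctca
Serpina5 (chr12:104101013-104101112, plus strand): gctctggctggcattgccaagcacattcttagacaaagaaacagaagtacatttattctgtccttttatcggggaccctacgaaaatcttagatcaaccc
Serpinb11 (chr1:107362214-107362313, plus strand): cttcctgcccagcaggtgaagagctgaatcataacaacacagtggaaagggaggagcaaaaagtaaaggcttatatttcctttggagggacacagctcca
Serpine2 (chr1:79858697-79858796, minus strand): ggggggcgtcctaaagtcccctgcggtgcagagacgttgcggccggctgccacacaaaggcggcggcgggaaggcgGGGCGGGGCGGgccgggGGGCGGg
Serpinh1 (chr7:99353240-99353339, minus strand): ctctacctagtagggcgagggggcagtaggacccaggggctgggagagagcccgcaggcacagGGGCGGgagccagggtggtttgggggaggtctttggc
Serpinb6a (chr13:34002795-34002894, minus strand): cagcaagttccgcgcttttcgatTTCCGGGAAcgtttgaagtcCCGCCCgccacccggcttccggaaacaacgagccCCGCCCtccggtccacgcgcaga
All 3 of the most abundant members held a GC box, as did Serpinb6b, which made 4 of the 14 tested members with a promoter. Of the 5 members with a promoter that rose or fell with diet, 0 held a GC box and 2 (Serpina3c and Serpinb12) held TATAAA. Serpina3c and Serpina3n, which lie in the same cluster on opposite strands, shared an unbroken run of 64 bases in their windows, yet Serpina3c was above 1 FPKM in 15 libraries and Serpina3n in 1. In Serpina3g the STAT letters lie 33 bases before the start. A match is only a match of letters.

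At Pd3, 2 of the 17 tested serpins were higher in F1-HHcy and 0 lower. They were Serping1, which encodes the inhibitor of the first complement proteases and of plasma kallikrein, and Serpina3c, an antichymotrypsin-type gene. Over all 14602 genes tested at Pd3, 1.26% rose and 1.01% fell. By the criterion of the study's volcano plots, which asks for an unadjusted p under 0.05 with a log2 difference beyond 0.58 in either direction, 6 members passed, all higher in F1-HHcy, against 9.76% of all genes. The log2 difference was above 0 for 17 of 17 members, with a median of 0.52 against -0.01 for all genes. Serpina5, Serpina9 and Serpinb11 were at 0 in all 3 F1-Control libraries, so their differences could not be below 0 and the count was partly fixed in advance.

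Serping1 at Pd3 was 31.8, 41.0 and 35.0 FPKM in the F1-Control libraries and 82.7, 81.1 and 57.4 FPKM in the F1-HHcy libraries. All F1-HHcy libraries lay above all F1-Control libraries, by 2.05-fold in the means (log2 difference 1.01 ± 0.17 SE, limma adjusted p = 0.0374). Serpina3c was 0.572, 0.405 and 0.239 FPKM in F1-Control and 3.07, 1.78 and 2.45 FPKM in F1-HHcy. These groups did not overlap either, with a log2 difference of 1.28 ± 0.18 (limma adjusted p = 0.0257) and between 15 and 199 fragments behind each value.

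Serpinc1, the gene of antithrombin, was 0.367, 0.722 and 0.723 FPKM in F1-Control and 7.99, 5.20 and 2.03 FPKM in F1-HHcy. Every F1-HHcy library was above every F1-Control library, but with a log2 difference of 1.79 ± 0.37 the limma adjusted p was 0.0581, and Serpinc1 overlaps other annotated genes on both strands. Serpinf1, which encodes the non-inhibitory pigment epithelium-derived factor, was 34.0, 44.9 and 39.4 FPKM in F1-Control and 93.0, 80.0 and 52.8 FPKM in F1-HHcy (limma adjusted p = 0.075). Serpine2 was 102, 116 and 127 FPKM in F1-Control and 244, 218 and 142 FPKM in F1-HHcy (limma adjusted p = 0.0944). Serpinb9, an intracellular inhibitor of granzyme B, was 2.85, 2.39 and 3.25 FPKM in F1-Control and 5.63, 5.72 and 3.82 FPKM in F1-HHcy (limma adjusted p = 0.0995). In each of these 4 genes the third F1-HHcy library was the lowest of its group.

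Without the third F1-HHcy library, 7 members were higher and 0 lower: Serping1, Serpina3c, Serpinc1, Serpinf1, Serpine2, Serpinb9 and Serpinb1a. Calls over all genes increased as well, to 10.2% higher and 10.5% lower of 14597 genes, and by the volcano criterion 7 members and 15.8% of all genes passed. The median log2 difference of the members was 0.49 in that fit. Without any 1 of the other 5 libraries (each of the 3 F1-Control libraries, and the first or second of F1-HHcy), 0 members passed. Calls over all genes fell as well in those 5 fits, from 184 higher and 147 lower to at most 41 higher and 70 lower. They were 0 and 0 without the first or the second F1-Control library. Marker lists moved with the same groups. The 8 stroma markers summed to 372 to 515 FPKM in F1-Control and 702 to 916 FPKM in F1-HHcy, and the 8 endothelium markers to 54.9 to 77.5 and 93.5 to 136 FPKM. The sums of the 10 granulosa markers (186 to 197 and 235 to 513 FPKM), the 11 oocyte markers (1290 to 1474 and 1742 to 2272), the 7 macrophage markers (19.8 to 24.0 and 28.6 to 30.7), the 6 adipocyte markers (1.07 to 3.68 and 4.08 to 11.3) and the 7 liver markers (2.78 to 5.39 and 8.29 to 57.2) were likewise higher in every F1-HHcy library. The oocyte list was split behind its sum: Zp2 was 202, 226 and 321 FPKM in F1-Control and 487.5, 728 and 444 FPKM in F1-HHcy. Ddx4, in turn, was 20.9, 21.9 and 20.6 and 10.3, 16.1 and 16.4 FPKM, and Sohlh1 92.5, 89.8 and 96.5 and 18.7, 42.7 and 67.9 FPKM. Most of the liver sum was Apoa1, while Alb was at or below 0.169 FPKM and Fgb at or below 0.0167 FPKM in these 6 libraries. The 7 erythroid markers went the other way, at 3941 to 11288 FPKM in F1-Control and 784 to 1108 FPKM in F1-HHcy. So did the 9 granulocyte markers, at 299.9 to 1141 and 8.87 to 152 FPKM. The sums of the 8 oviduct epithelium markers (187 to 293 and 76.7 to 141 FPKM) and the 6 mast cell markers (109 to 118 and 75.9 to 107 FPKM) were lower too, but both lists were split. Their median log2 differences over tested genes were -0.09 and 0.14. Among the oviduct markers, Cd24a was 175, 115 and 63.9 FPKM in F1-Control and 14.6, 20.7 and 32.3 FPKM in F1-HHcy, while Cldn3 was 1.69, 2.36 and 3.02 and 1.88, 4.70 and 6.91 FPKM. Among the mast cell markers, Kit was 73.55, 63.65 and 70 and 20.5, 36.5 and 65.5 FPKM, while Cma1 was 14.2, 14.4 and 12.8 and 17.1, 17.1 and 14.6 FPKM. Apart from 2 adipocyte markers in F1-Control and 2 liver markers in F1-HHcy, no marker of these lists was at 0 in all 3 libraries of either group. The part of these cell types in the serpin values was not tested.

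**Figure D2:**
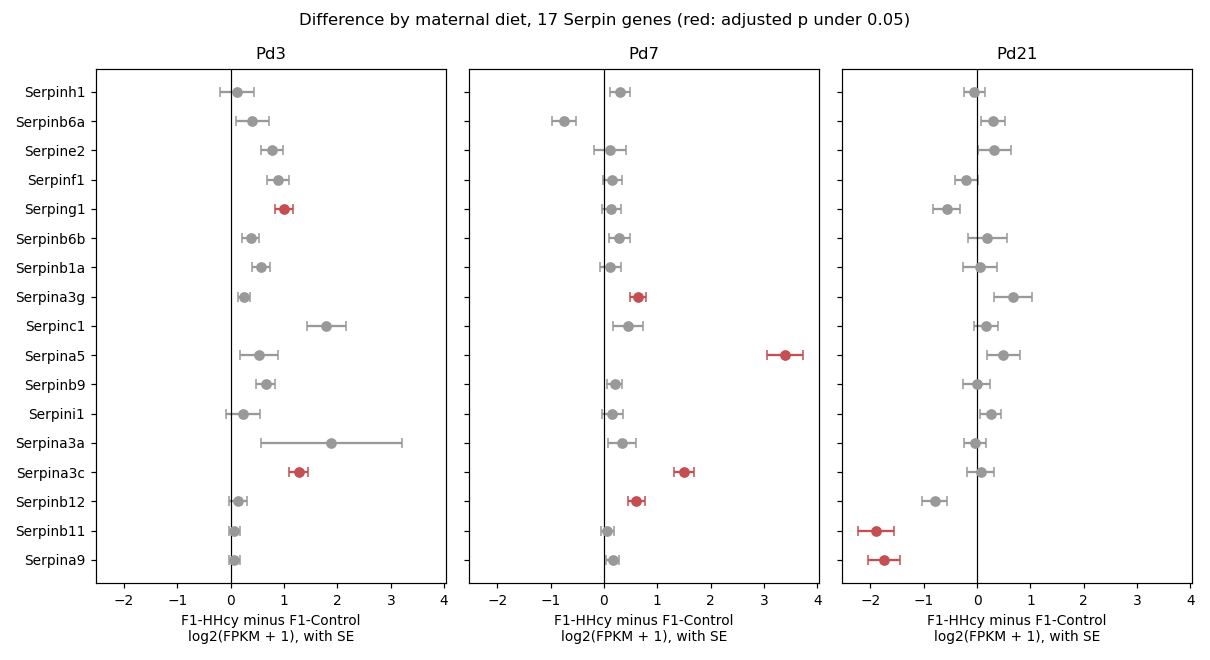
Difference between F1-HHcy and F1-Control on the log2(FPKM + 1) scale with its SE (x axis) for the 17 tested serpins (y axis, most abundant at the top) at Pd3, Pd7 and Pd21, with red for an adjusted p under 0.05. All 17 points lie right of 0 at Pd3, Serpina5 stands at 3.39 at Pd7, and Serpinb11 and Serpina9 stand below -1.7 at Pd21. At Pd3 the points of Serpina5, Serpina9 and Serpinb11 could not lie left of 0, since all 3 F1-Control libraries were at 0.

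At Pd7, 4 of the 17 tested serpins were higher in F1-HHcy and 0 lower, against 5.08% and 5.51% of the 14605 genes tested. By the volcano criterion 5 members passed, the 4 and Serpinb6a, against 16.1% of all genes. The 4 were Serpina5, which encodes the protein C inhibitor, the antichymotrypsin-type genes Serpina3c and Serpina3g, and Serpinb12, an intracellular serpin of epithelia. The median log2 difference was 0.20 for the members and -0.01 for all genes.

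Serpina5 differed most. It was 0, 0.0621 and 0.144 FPKM in F1-Control (0, 5 and 12 fragments) and 8.41, 6.10 and 19.9 FPKM in F1-HHcy (653, 467 and 1681 fragments). In the younger ovaries it was listed at 0 in all 3 F1-Control libraries of Pd3 and at 1.73, 0.0735 and 0.0127 FPKM in F1-HHcy. The gene was thus near 0 in all libraries of batch 1 other than the F1-HHcy libraries of Pd7 and the first F1-HHcy library of Pd3. At Pd21 it was 9.05, 12.8 and 6.50 FPKM in F1-Control and 8.22, 17.1 and 16.5 FPKM in F1-HHcy, groups that overlapped (limma adjusted p = 1). The Pd7 log2 difference was 3.39 ± 0.34 (limma adjusted p = 0.00246) and lay between 2.94 and 3.72 with each library left out in turn, with an adjusted p of at most 0.0208.

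Theca and granulosa markers were also higher in the F1-HHcy libraries of Pd7. The 8 theca and steroidogenic markers summed to 251 to 485 FPKM in F1-Control and 1194 to 1255 FPKM in F1-HHcy, and the 10 granulosa markers to 232 to 518 and 529.5 to 913 FPKM. Within groups Serpina5 and the theca sum did not keep 1 order. The F1-HHcy library with the most Serpina5 had the highest theca sum at Pd3 (737, 388 and 101 FPKM in the 3 libraries) and the lowest at Pd7 (1221, 1255 and 1194 FPKM). The granulosa sum ranked the libraries as Serpina5 did in F1-HHcy at Pd3 (513, 321 and 235 FPKM) and at Pd7 (566.5, 529.5 and 913 FPKM). It did so too in F1-Control at Pd7 (232, 267 and 518 FPKM) and in both groups of Pd21. Between groups, like granulosa sums came with unlike Serpina5 levels. The third F1-Control library of Pd7 had a sum of 518 FPKM and Serpina5 at 0.144 FPKM. The second F1-HHcy library of Pd7 had 529.5 and 6.10 FPKM, and the first F1-HHcy library of Pd3 had 513 and 1.73 FPKM. The endothelium (119 to 128 and 132 to 158 FPKM), adipocyte (4.86 to 16.3 and 16.5 to 25.6) and liver sums (21.2 to 42.2 and 44.0 to 52.4) were also higher in every F1-HHcy library of Pd7. Most of the liver sum was again Apoa1, and the median log2 difference over the 3 tested liver markers was 0.03. Ahsg among them was 1.22, 1.74 and 2.64 FPKM in F1-Control and 0.910, 1.34 and 1.09 FPKM in F1-HHcy. Lower in every F1-HHcy library were the sums of the 8 ovarian surface epithelium markers (485 to 816 in F1-Control and 218 to 418 FPKM in F1-HHcy), the oviduct epithelium (91.0 to 190.4 and 53.8 to 66.6), oocyte (1951 to 3060 and 1170 to 1640), erythroid (925 to 5791 and 287 to 502), macrophage (28.6 to 36.5 and 23.7 to 26.0) and mast cell markers (62.8 to 86.7 and 31.6 to 51.3). Both epithelial sums were thus lower in F1-HHcy at Pd7, the day on which Serpinb12 was higher. The oocyte list was split behind its sum, with 2 of the 11 markers called higher in F1-HHcy and 6 lower. Bmp15 was 14.3, 14.8 and 26.3 FPKM in F1-Control and 64.1, 56.1 and 77.35 FPKM in F1-HHcy, and Oosp1 83.7, 102 and 101 and 209, 181 and 149 FPKM. Zp2, in turn, was 591, 906 and 578 and 301, 250 and 359 FPKM. The part of any of these cell types in the serpin values of Pd7 was not tested.

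Serpina3c at Pd7 was 1.78, 1.17 and 2.40 FPKM in F1-Control and 6.62, 6.51 and 7.15 FPKM in F1-HHcy, a 3.79-fold difference of means (log2 difference 1.502 ± 0.18, limma adjusted p = 0.0049). Its F1-HHcy libraries of Pd7 lay close together and above all libraries of Pd3 and Pd7 of the other groups. Serpina3g, a nuclear and cytosolic inhibitor of cathepsins, was 9.40, 12.2 and 9.10 FPKM in F1-Control and 15.5, 16.0 and 17.6 FPKM in F1-HHcy, again without overlap (log2 difference 0.64 ± 0.15, limma adjusted p = 0.0316). At Pd3 Serpina3g was 6.92, 7.27 and 7.48 FPKM in F1-Control and 8.08, 9.14 and 9.09 FPKM in F1-HHcy (limma adjusted p = 0.24), and at Pd21 13.02, 17.9 and 5.40 FPKM in F1-Control and 15.9, 20.9 and 17.4 FPKM in F1-HHcy (limma adjusted p = 0.973). The diet groups of Pd21 overlapped, with the lowest value of all 18 libraries in the third F1-Control library.

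Serpinb12 was 0.420, 0.375 and 0.221 FPKM in F1-Control and 1.05, 0.703 and 1.43 FPKM in F1-HHcy at Pd7 (log2 difference 0.61 ± 0.16, limma adjusted p = 0.0452). This call was the weakest of the 4: the adjusted p lay between 0.0506 and 0.132 without any 1 of the 6 libraries. Serpina3g lost its call without any library but the second of F1-Control, with an adjusted p of at most 0.104. Serpinb6a, the most abundant intracellular serpin, was 439, 606 and 351 FPKM in F1-Control and 294, 289.9 and 230.3 FPKM in F1-HHcy (log2 difference -0.75 ± 0.23, limma adjusted p = 0.0666). It passed the test as lower in F1-HHcy when the third F1-Control library was left out (adjusted p = 0.0358). Serpinb6a overlaps protein-coding genes on the opposite strand, which the stranded libraries can tell apart only if they were counted by strand.

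**Figure D3:**
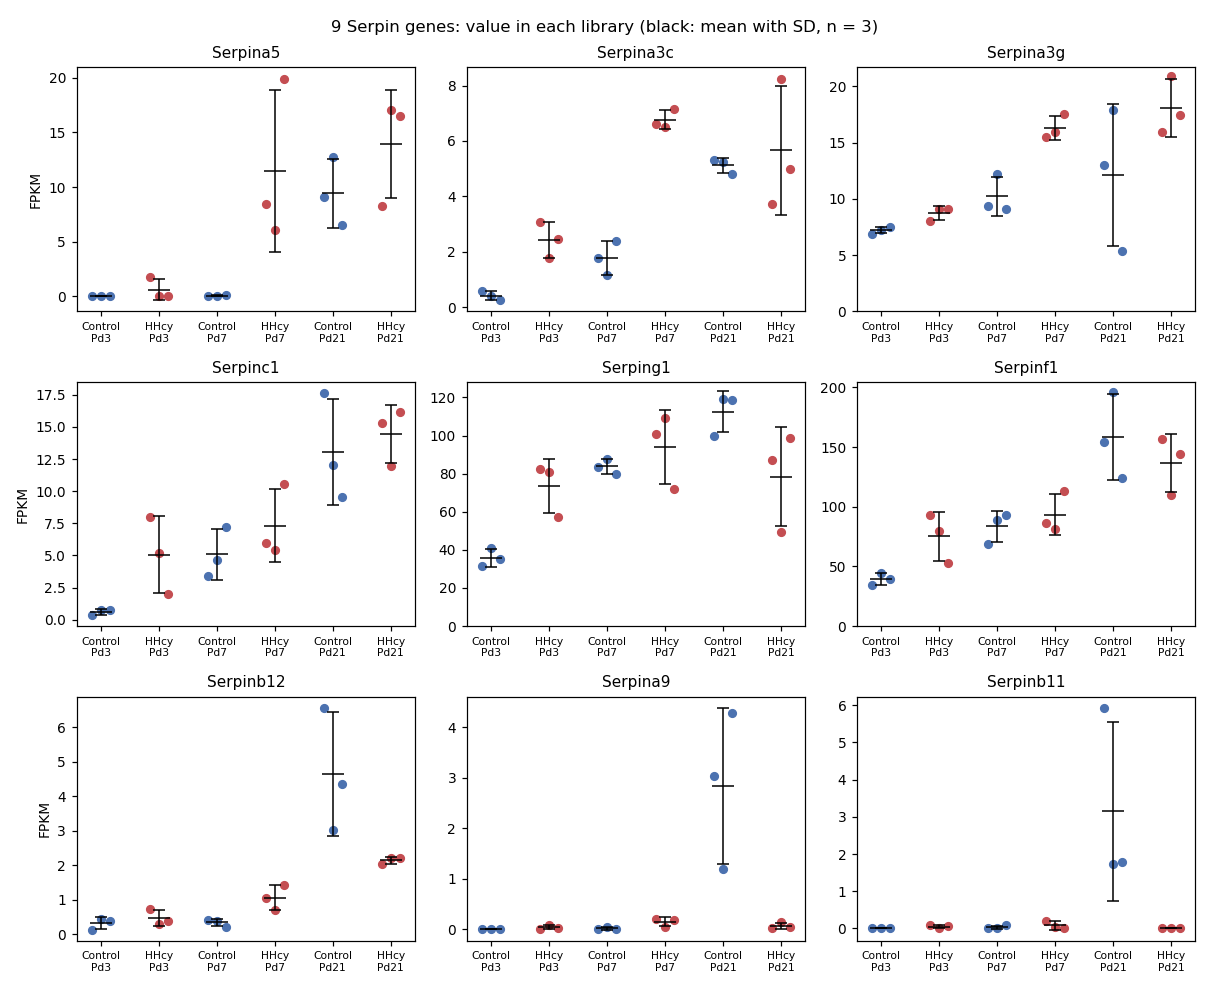
FPKM (y axis) of 9 serpins in each library of the 6 groups (x axis; blue: F1-Control, red: F1-HHcy; black: mean with SD, n = 3). Serpina5 is near 0 in F1-Control until Pd7 and at 6.10 to 19.9 FPKM in F1-HHcy at Pd7, Serpinc1, Serping1 and Serpinf1 are lowest in F1-Control at Pd3, and Serpina9 and Serpinb11 are above 1 FPKM in F1-Control at Pd21 alone.

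At Pd21, 0 of the 17 tested serpins were higher in F1-HHcy and 2 lower, Serpina9 and Serpinb11. Over the 14600 genes tested, 0% rose and 2.06% fell, and 0 genes rose by limma-voom on the recovered fragments as well. By limma, 999 genes of either direction had an unadjusted p under 0.05. By the volcano criterion 3 members passed, with Serpinb12 as the third, against 4.94% of all genes. The median log2 difference was 0.05 for the members and -0.01 for all genes.

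Serpina9, a clade A gene named centerin for its expression in germinal-centre B cells, was 3.03, 1.20 and 4.27 FPKM in F1-Control (217, 84 and 307 fragments) and 0.0302, 0.141 and 0.0552 FPKM in F1-HHcy (2, 10 and 4 fragments). Its log2 difference was -1.75 ± 0.29 (limma adjusted p = 0.0231). Serpinb11 was 5.93, 1.72 and 1.79 FPKM in F1-Control (392, 111 and 119 fragments) and 0.0163, 0 and 0.0149 FPKM in F1-HHcy (1, 0 and 1 fragments), with a log2 difference of -1.89 ± 0.34 (limma adjusted p = 0.0311). Both genes stayed below 0.21 FPKM in all 12 libraries of Pd3 and Pd7, so they entered the statistics only through the F1-Control libraries of Pd21 and had to differ there, and their count is not read against the share of all genes. Serpinb12 was 6.56, 3.00 and 4.35 FPKM in F1-Control and 2.03, 2.20 and 2.19 FPKM in F1-HHcy, also without overlap, but its limma adjusted p was 0.269.

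The call for Serpina9 was lost without any library other than the second of F1-Control, with an adjusted p of at most 0.111. That for Serpinb11 was lost without the third F1-Control library or any 1 F1-HHcy library, with an adjusted p of at most 0.122. Markers of the oviduct, which adjoins the ovary, moved with both genes. The 8 oviduct epithelium markers summed to 596, 198 and 783 FPKM in the F1-Control libraries and to 63.7, 39.1 and 67.7 FPKM in the F1-HHcy libraries. Ovgp1, which encodes the oviductal glycoprotein, was 216, 37.5 and 365 FPKM in F1-Control and 2.10, 0.370 and 1.12 FPKM in F1-HHcy. Foxj1, a regulator of motile cilia, was 99.1, 20.4 and 49.6 FPKM in F1-Control and 0.371, 0.441 and 0.248 FPKM in F1-HHcy. In F1-Control, the library with the highest marker sum had the most Serpina9 and that with the lowest had the least Serpina9, Serpinb11 and Serpinb12, while the most Serpinb11 and Serpinb12 came from the first library, with the middle marker sum. None of the 8 oviduct markers was at 0 in all 3 libraries of a group. Other sums were also lower in every F1-HHcy library of Pd21. They were the 8 ovarian surface epithelium markers (376 to 510 FPKM in F1-Control and 131 to 253.5 FPKM in F1-HHcy) and the 9 granulocyte markers (9.31 to 21.4 and 2.62 to 8.05 FPKM). The granulocyte list was split, with a median log2 difference of 0.09 over tested genes. Most of its F1-Control sum was Ltf, at 18.4, 5.20 and 10.8 FPKM in F1-Control and 0.0809, 0.104 and 0.204 FPKM in F1-HHcy. S100a8, in turn, was 0.393, 1.68 and 1.175 and 0.9905, 3.84 and 0.712 FPKM. The part of oviduct tissue or of these cell types in the serpin values was not tested.

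**Figure D4:**
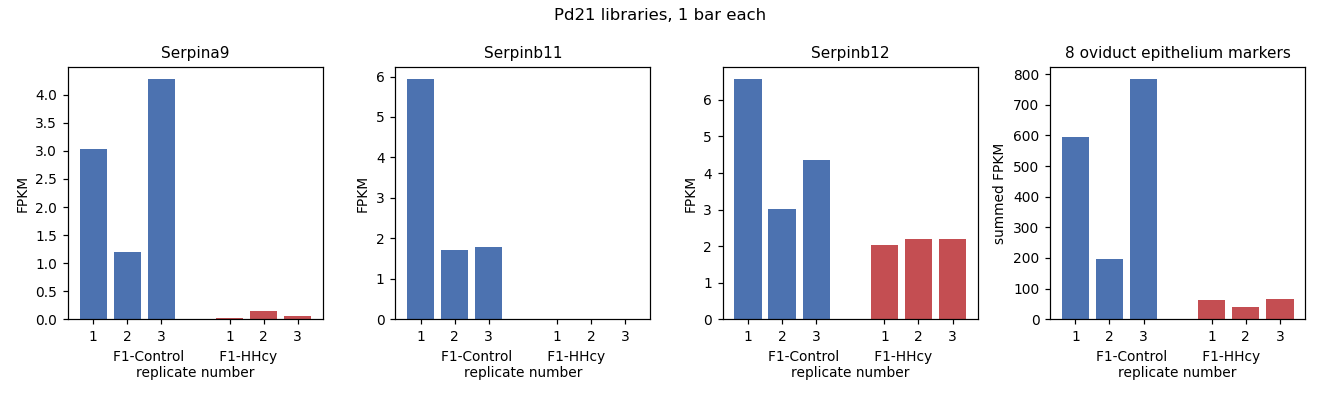
FPKM of Serpina9, Serpinb11 and Serpinb12 and the summed FPKM of 8 oviduct epithelium markers (y axes) in each Pd21 library (x axis: replicate number; blue: F1-Control, red: F1-HHcy; 1 bar per library). All 4 measures were higher in each F1-Control library than in any F1-HHcy library, with marker sums of 198.1 to 783 against 39.1 to 67.7 FPKM.

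From Pd3 to Pd7, 6 of the 17 tested serpins rose in F1-Control and 0 fell, against 6.97% and 6.58% of the 14600 genes tested. The 6 were Serping1, Serpinc1, Serpinf1, Serpina3c, Serpine2 and Serpinb9, 3 of which regulate clotting, fibrinolysis or complement. The median log2 difference was 0.31 for the members and -0.05 for all genes. Serping1 went to 83.7, 87.8 and 80.0 FPKM at Pd7, 2.33-fold above Pd3 (log2 difference 1.21 ± 0.13, limma adjusted p = 0.00115). Serpinc1 reached 3.40, 4.63 and 7.25 FPKM, with a log2 difference of 1.88 ± 0.23 (limma adjusted p = 0.00251). Serpinf1 reached 68.5, 89.3 and 92.8 FPKM (log2 difference 1.06 ± 0.16, limma adjusted p = 0.00548). For these 3 genes the call held without any 1 of the 6 libraries.

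Serpina3c rose by 0.97 ± 0.18 on the log2 scale (limma adjusted p = 0.0127), Serpine2 by 0.90 ± 0.21 (0.0279) and Serpinb9 by 0.63 ± 0.15 (0.0307). Serpine2 was 155, 234 and 272 FPKM and Serpinb9 5.46, 4.65 and 4.64 FPKM at Pd7, above all of their Pd3 libraries. With the replicate number as a block the limma adjusted p of Serpinb1a, an inhibitor of neutrophil elastase, went from 0.0508 to 0.0385. Without the second or the third F1-Control library of Pd3, 3 members rose in place of 6 (Serpinc1, Serpinf1 and Serping1). Over all genes, 398 and 580 rose in these fits in place of 1017.

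In F1-HHcy, 0 members and 0% of the 14605 genes tested rose or fell from Pd3 to Pd7 by limma. At an unadjusted p under 0.05 there were 5 members and 3408 genes, and limma-voom on the recovered fragments also called 0 genes. The smallest adjusted p of a member was 0.1, for Serpina3c (log2 difference 1.19 ± 0.16), Serpina3g (0.83 ± 0.11) and Serpina5 (2.96 ± 0.50). Without the first F1-HHcy library of Pd3, those 3 rose and Serpinb6a fell, while 3.79% of all genes rose and 4.95% fell. The levels that F1-Control reached at Pd7 can be set beside those of F1-HHcy at Pd3: Serping1 was 73.7 ± 14.1 FPKM in F1-HHcy at Pd3 and 83.8 ± 3.91 FPKM in F1-Control at Pd7 (SD, n = 3). Serpinc1 was likewise 5.07 ± 2.98 FPKM and 5.09 ± 1.97 FPKM, and Serpinf1 75.3 ± 20.5 FPKM and 83.5 ± 13.1 FPKM (SD, n = 3). The Pd3 diet comparison and the F1-Control comparison of days share the F1-Control libraries of Pd3, which hold the lowest values of these genes, so the 2 sets of calls are not independent.

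**Figure D5:**
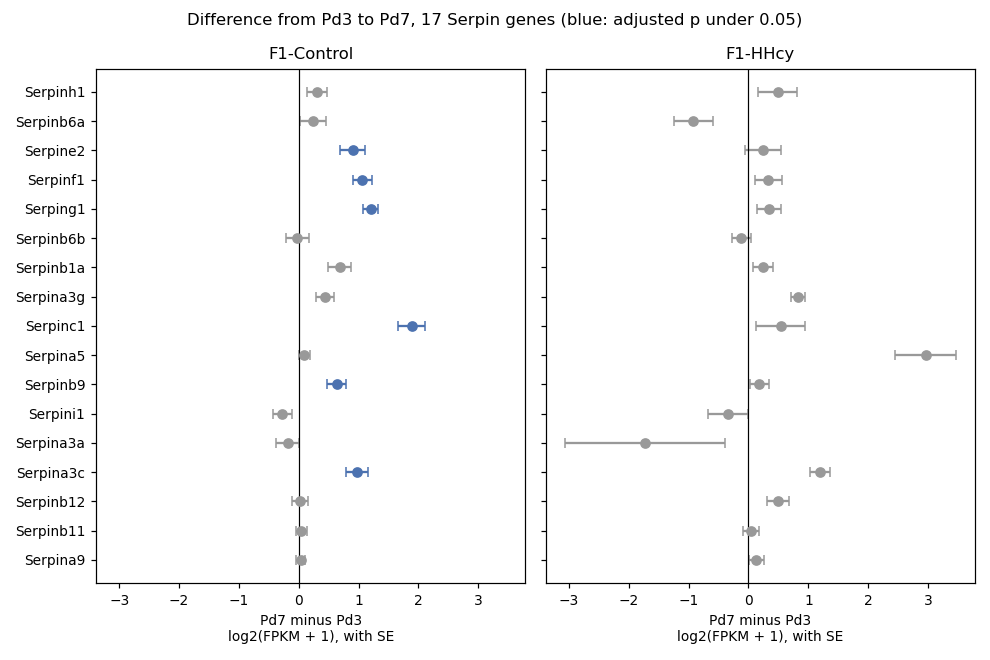
Difference between Pd7 and Pd3 on the log2(FPKM + 1) scale with its SE (x axis) for the 17 tested serpins (y axis) in F1-Control and F1-HHcy, with blue for an adjusted p under 0.05. In F1-Control 6 genes passed, Serpinc1 with the largest difference at 1.88, and in F1-HHcy 0 passed although Serpina5 stood at 2.96.

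Whether the effect of diet differed between days was tested in 1 model of all 18 libraries. From Pd3 to Pd7 the effect on Serpina5 increased, the 1 member among 0.103% of all 14607 genes to do so. From Pd7 to Pd21 the signed difference of F1-HHcy from F1-Control decreased for 5 members (Serpina5, Serpina3c, Serpina9, Serpinb11 and Serpinb12), against 2.9% of all genes. From Pd3 to Pd21 it decreased for 4 members (Serping1, Serpina3c, Serpina9 and Serpinb11), against 3.78% of all genes. At Pd21 the log2 difference was below 0 for Serpina9 (-1.75), Serpinb11 (-1.89), Serpinb12 (-0.80) and Serping1 (-0.57), and above 0 for each of them at Pd3 and Pd7. A decrease therefore covers changes of sign as well as smaller effects. Serpina9 and Serpinb11 passed the filter only through the F1-Control libraries of Pd21, the group in which they are high, so neither count is read as an excess over all genes. The larger effect on Serpina5 at Pd7 than at Pd3 lost its call without any 1 of 7 libraries: each F1-Control library of Pd3, the second F1-HHcy library of Pd3, the second F1-Control library of Pd7, and the first or the third F1-HHcy library of Pd7, with an adjusted p by limma of at most 0.113. The Serpina3c call from Pd3 to Pd21 was lost without any 1 of 8 libraries: the second or the third of F1-Control and the first of F1-HHcy at Pd3, each of F1-Control at Pd21, and the first or the third of F1-HHcy at Pd21, with an adjusted p of at most 0.0878. Wherever Pd21 takes part, age and batch cannot be told apart.

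Serpinh1, Serpinb6a and Serpine2, the 3 most abundant members, did not pass the test for diet on any day. Serpinh1 was 239.5, 278 and 332 FPKM in F1-Control and 429.9, 364 and 181 FPKM in F1-HHcy at Pd3, 341, 352 and 351 FPKM in F1-Control and 367, 408 and 526 FPKM in F1-HHcy at Pd7, and 514, 536 and 390.4 FPKM in F1-Control and 431, 499 and 445 FPKM in F1-HHcy at Pd21. Its adjusted p by limma was 0.853, 0.295 and 1 on the 3 days, and the third F1-HHcy library of Pd3 held its lowest value. Serpinb6a was 419.9, 361 and 378 FPKM in F1-Control and 334, 475 and 842 FPKM in F1-HHcy at Pd3, and 229, 188 and 216 FPKM in F1-Control and 198, 356 and 247 FPKM in F1-HHcy at Pd21. The highest Serpinb6a value of all 18 came from that same F1-HHcy library of Pd3.

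Serpine2 at Pd7 in F1-HHcy was 207, 172 and 351 FPKM, and at Pd21 it was 490.1, 515 and 312 FPKM in F1-Control and 367, 693 and 611 FPKM in F1-HHcy. Every Pd21 library lay above all libraries of Pd3 and Pd7 other than the third F1-HHcy library of Pd7, a difference in which age and batch cannot be told apart. Serpinf1 was 86.2, 81.2 and 113 FPKM in F1-HHcy at Pd7 and 154, 196 and 124 FPKM in F1-Control and 157, 109.7 and 144 FPKM in F1-HHcy at Pd21. Serping1 was 101, 109 and 72.03 FPKM in F1-HHcy at Pd7. At Pd21 it was 100, 119 and 119 FPKM in F1-Control and 87.3, 49.3 and 98.6 FPKM in F1-HHcy, the reverse order of Pd3, with a limma adjusted p of 0.747.

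Serpinc1 was 5.94, 5.45 and 10.6 FPKM in F1-HHcy at Pd7 and 17.6, 12.0 and 9.52 FPKM in F1-Control and 15.3, 11.9 and 16.1 FPKM in F1-HHcy at Pd21, with overlapping diets on both days. Serpinb6b, a close relative of Serpinb6a, was 15.7, 18.5 and 17.7 FPKM in F1-Control and 18.04, 23.6 and 27.6 FPKM in F1-HHcy at Pd3, 16.6, 22.7 and 12.8 FPKM in F1-Control and 20.4, 20.1 and 22.1 FPKM in F1-HHcy at Pd7, and 30.4, 35.2 and 16.4 FPKM in F1-Control and 18.3, 43.9 and 33.3 FPKM in F1-HHcy at Pd21. Its diet groups overlapped on every day. Serpini1, the gene of neuroserpin, an inhibitor of tissue plasminogen activator, was between 3.54 and 6.90 FPKM in 17 libraries and at 11.3 FPKM in the third F1-HHcy library of Pd3.

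Serpinb9 at Pd7 was 6.00, 5.97 and 5.40 FPKM in F1-HHcy, and at Pd21 8.71, 7.92 and 7.07 FPKM in F1-Control and 5.15, 11.6 and 7.99 FPKM in F1-HHcy. Serpina3c at Pd21 was 5.33, 5.22 and 4.79 FPKM in F1-Control and 3.74, 8.25 and 4.99 FPKM in F1-HHcy, groups that overlapped (limma adjusted p = 1). Serpinb1a ranged from 8.76 to 32.2 FPKM, and its adjusted p by limma for diet was 0.119 at Pd3, 0.693 at Pd7 and 1 at Pd21. At low levels, Serpinb12 at Pd3 was 0.131, 0.450 and 0.394 FPKM in F1-Control and 0.731, 0.289 and 0.368 FPKM in F1-HHcy. Serpina9 reached 0.207, 0.0485 and 0.191 FPKM and Serpinb11 0.207, 0.0350 and 0 FPKM in F1-HHcy at Pd7.

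Serpina3a, named here after its values were seen, was 74.0 FPKM in the third F1-HHcy library of Pd3 and 0.136 to 1.85 FPKM in the other 17. Its Pd3 log2 difference of 1.89 ± 1.31 (limma adjusted p = 0.436) therefore rests on 1 library. Serpina1e in the third F1-Control library of Pd21 was a similar case: Scd1, a fatty acid desaturase gene, was 51.6 FPKM in that library and 1.31 to 5.01 FPKM in the others. The 6 adipocyte markers summed to 101, 53.6 and 317 FPKM in the F1-Control libraries of Pd21 and 81.7, 15.2 and 7.65 FPKM in the F1-HHcy libraries, highest in that same library. Alb, the albumin gene and a defining marker of liver, where Serpina1 genes are strongest, stayed at or below 0.468 FPKM in all 18 libraries. The 7 liver markers summed to 49.2, 51.0 and 38.9 FPKM in the F1-Control libraries of Pd21, lowest in the third, and Ahsg among them was 1.17, 0.330 and 2.57 FPKM, highest in the third. The part of liver or fat tissue in the Serpina1e value was not tested.

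Of 35 proteases, cofactors and receptors that serpins act on or through, 23 were tested at Pd3 and Pd7 and 21 at Pd21. At Pd3, 2 were higher in F1-HHcy and 0 lower, against 1.26% and 1.01% of all genes: Thbd, the thrombin receptor thrombomodulin, with a log2 difference of 0.84 ± 0.14 (limma adjusted p = 0.0374), and Lrp1, which clears serpin-protease complexes (0.89 ± 0.15, limma adjusted p = 0.0375). Next in order came the secreted protease Htra1, which did not pass (limma adjusted p = 0.0648). Without the third F1-HHcy library, 6 were higher (Ctsl, Htra1, Lrp1, Plau, Tfpi and Thbd) and 0 lower, against 10.2% and 10.5% of all genes. Without the first or the second F1-Control library of Pd3, 0 of all genes passed, and the calls of Thbd and Lrp1 were lost. At Pd7, 3 were higher and 0 lower, against 5.08% and 5.51% of all genes: Plau, the urokinase gene, with group means of 23.9 FPKM in F1-Control and 61.5 FPKM in F1-HHcy (limma adjusted p = 0.01), the complement protease gene C1s1 (16.4 and 31.1 FPKM, 0.0197) and Lrp1 (27.1 and 61.8 FPKM, 0.0307). Plau and Serpina5, whose product can inhibit urokinase, were both higher in F1-HHcy on that day.

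At Pd21, 0 partners were higher and 2 lower in F1-HHcy, against 0% and 2.06% of all genes. F3, the gene of tissue factor, had means of 16.1 FPKM in F1-Control and 5.40 FPKM in F1-HHcy (limma adjusted p = 0.00525). Tmprss2, a membrane protease of epithelia, had means of 2.88 and 0.0911 FPKM (0.0155), and Prss8, another epithelial protease, 6.85 and 1.39 FPKM (0.0855). Tmprss2 reached 1 FPKM only in the F1-Control libraries of Pd21 and so passed the filter only through the group where it is high. From Pd3 to Pd7 in F1-Control, 4 rose (Htra1, Thbd, Tfpi and Ctsl) and 0 fell, against 6.97% and 6.58% of all genes, and in F1-HHcy 0 rose or fell. Anxa2 and S100a10, which together bind plasminogen at the cell surface, had the highest means of the list at Pd3 and Pd7 (S100a10 and Ctsl at Pd21) and passed in none of these diet comparisons. The median log2 difference by diet was 0.17, -0.15 and -0.08 for the list at Pd3, Pd7 and Pd21.

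Around Serpinh1, 32 of 33 collagen and collagen-maturation genes were tested. At Pd3, 3 were higher in F1-HHcy and 0 lower, against 1.26% and 1.01% of all genes: Adamts2, which trims procollagen (log2 difference 0.93 ± 0.13, limma adjusted p = 0.0264), Col5a1 (0.93 ± 0.15, 0.0336) and Col1a2 (1.14 ± 0.19, 0.0374). Without the third F1-HHcy library, 16 were higher and 0 lower, against 10.2% and 10.5% of all genes. Without the first or the second F1-Control library, 0 of all genes passed, so the Pd3 calls of this list were lost too. At Pd7, 4 were higher (Plod2, Plod1, P3h2 and Colgalt2, enzymes that hydroxylate or glycosylate collagen) and 1 lower (Loxl1, a cross-linking oxidase), against 5.08% and 5.51% of all genes. Plod2 had means of 9.10 FPKM in F1-Control and 21.9 FPKM in F1-HHcy (limma adjusted p = 0.0141). At Pd21, 0 of the 32 passed, with Loxl1, P3h2 and Col1a1 at the smallest p. From Pd3 to Pd7, 5 rose and 0 fell in F1-Control (Col1a2, P4ha2, Pcolce, Adamts2 and P3h2), against 6.97% and 6.58% of all genes, and 0 passed in F1-HHcy. Sparc and Ppib were the most abundant of the list on every day and passed in none of the 5 comparisons. The median log2 difference by diet was 0.34 at Pd3, 0.12 at Pd7 and -0.14 at Pd21.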

How the data were processed

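For every library the authors deposited a table of gene symbols with 1 value each, 30172 genes in all. The deposited values were read as FPKM: with 1 length per gene and 1 depth per library, all 27294 genes above 0 in at least 3 libraries gave whole fragments (tolerance 0.02). The submitters' processing notes name FastQC 0.11.9, Trimmomatic 0.39, STAR 2.7.9a, featureCounts 2.0.1, DESeq2 1.36.0 and GRCm38/mm10; their settings are not given in the sources used here. Depth was 33630304 to 39398922 fragments.

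Each comparison was fitted with limma 3.58.1 (R 4.3.3, mean-variance trend, log2(FPKM + 1)) on its 6 libraries, leaving out genes that reached 1 FPKM in fewer than 3 of the 18, with Benjamini-Hochberg adjustment over all genes tested; changes of the diet effect used all 18. The scripts were tested on simulated data. Alternatives were a pseudocount of 0.1, no filter, a filter over the 6 libraries, median-ratio scaling, limma-voom on recovered fragments, 1 model of 18 libraries, a replicate block and each library left out. Replicate numbers come from the labels: deviations of same-numbered libraries correlated at 0.119, 0.244 and 0.26 between Pd3 and Pd7 in F1-Control, over 0.1 in each pair, which held in no other comparison.

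Members and lists were chosen with earlier results of these data known. Values per library are given for members that passed any test of diet, of Pd3 against Pd7 or of their interaction, for the 6 most abundant and for the smallest p of each functional group in a diet comparison. The values of 1 member without statistics are not reported here. Of the lists, the 3 smallest p and 2 highest means were named. Python 3.11.15 (numpy 2.4.6, pandas 2.3.3, matplotlib 3.10.9) served for tables and plots.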

Additional observations from a re-analysis of the deposited data

Results flagged for a closer look

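The effect of maternal diet differed between days for 6 serpins by the test of the difference itself (limma, 1 model of 18 libraries, log2 differences with SE). Serpina5 had a larger effect at Pd7 than at Pd3, by 2.87 ± 0.56 (adjusted p = 0.033), and a smaller one at Pd21 than at Pd7, by -2.89 ± 0.56 (0.00474). Serpina3c had a smaller effect at Pd21 than at Pd7, by -1.43 ± 0.31 (0.0109), and than at Pd3, by -1.21 ± 0.31 (0.03). Serpina9 differed between Pd21 and Pd7 by -1.92 ± 0.30 (0.00098) and between Pd21 and Pd3 by -1.81 ± 0.30 (0.0015). Serpinb11 differed by -1.95 ± 0.35 (0.00269) and -1.96 ± 0.35 (0.00244) in the same order. Serpinb12 differed between Pd21 and Pd7 by -1.41 ± 0.29 (0.00805), and Serping1 between Pd21 and Pd3 by -1.58 ± 0.31 (0.00598). Serpina9 and Serpinb11 reached 1 FPKM only in the F1-Control libraries of Pd21, and so entered the test only through the group where they are high. The outlier test for single values needs groups of at least 4 libraries and was not run on these groups of 3.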

How the results depend on the processing

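None of the 49 gene results with an unadjusted p under 0.05 changed direction under any alternative run. Outside the left-out libraries, 227 of 261 gene values stayed on their side of the threshold, 22 lost a call and 12 gained one. Without a filter, which raises the number of genes adjusted for, the count higher in F1-HHcy went from 2 to 0 at Pd3 and from 4 to 1 at Pd7, the count lower at Pd21 from 2 to 0, and the count that rose in F1-Control from 6 to 3. In 1 model of 18 libraries the counts were 4 at Pd3, 2 at Pd7 and 2 that rose in F1-HHcy. With a pseudocount of 0.1, 0 members had a larger effect at Pd7 than at Pd3. The replicate block left 0 members higher at Pd3, 1 lower at Pd7 (Serpinb6a) and 0 with a larger effect at Pd7 than at Pd3; for the diet comparisons the numbers did not pair the libraries. Apart from the number of genes adjusted for, the cause of these changes was not tested. Over all genes, the counts higher and lower went from 184 and 147 to 0 and 0 at Pd3 without a filter, to 0 and 1 with the block and to 458 and 423 in 1 model. Without a filter they went from 742 and 805 to 62 and 29 at Pd7, from 301 to 37 lower at Pd21 and from 1017 and 961 to 511 and 375 in F1-Control. In 1 model 497 were lower at Pd21, and 335 rose and 465 fell in F1-HHcy. Depth limits the lowest values: Serpinb11 had 1, 0 and 1 fragments in the F1-HHcy libraries of Pd21.

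Leaving out each library gave 0 to 7 members higher and 0 lower at Pd3, 2 to 3 higher and 0 to 1 lower at Pd7, and 0 higher and 0 to 2 lower at Pd21. It gave 3 to 5 that rose in F1-Control, and 0 to 3 that rose and 0 to 1 that fell in F1-HHcy. Over all genes, the same fits gave 0 to 1491 higher and 0 to 1536 lower at Pd3. At Pd7 they gave 217 to 901 higher and 180 to 1079 lower, and at Pd21 0 to 2 and 129 to 404. From Pd3 to Pd7, 377 to 1100 genes rose and 170 to 1309 fell in F1-Control, and 0 to 554 and 0 to 723 in F1-HHcy. For the change of the signed diet difference, leaving out each library gave 0 to 1 that increased and 0 to 1 that decreased from Pd3 to Pd7. It gave 5 that decreased from Pd7 to Pd21, and 3 to 6 that decreased from Pd3 to Pd21.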
